A study of Homo sapiens with 2 samples.

Results

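The genes described here are the splicing factor and RNA helicase genes of SNK6 cells whose symbols begin with SRSF, HNRNP, SF3A, SF3B, SNRP, PRPF, or with LSM, DDX or DHX followed by a digit. Of 14884 genes named in the platform annotation, 112 matched, and 12 were left out (10 pseudogenes and 2 long non-coding RNAs). This left 100 protein-coding genes in 7 of the 9 families: 31 DDX, 21 HNRNP, 16 DHX, 11 SNRP, 10 SRSF, 10 PRPF and 1 LSM gene. No probe set was named for SF3A or SF3B, which are not analysed here. The study used SNK6, an established line of human NK/T-cell lymphoma kept in interleukin-2, and exposed it for 72 h to romidepsin alone (1 array) or to romidepsin with sildenafil (1 array). Romidepsin inhibits class I histone deacetylases, and sildenafil inhibits the cGMP phosphodiesterase PDE5. Both arrays therefore carry romidepsin. Drug doses are not stated in the labels, and cells without romidepsin were not analysed here. All values come from 1 cell line with 1 array per treatment, so no difference was tested and no value has a replicate error.

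Splicing removes introns from pre-mRNA in the spliceosome, which is built from small nuclear RNAs and their proteins (snRNPs). Sm proteins, encoded by SNRP genes, form a ring on most of these RNAs, and PRPF genes encode proteins of the U4/U6.U5 tri-snRNP and of other spliceosome steps. SR proteins (SRSF genes) mostly promote the use of exons, and hnRNPs coat nascent RNA and often oppose them. DDX and DHX genes encode DEAD-box and DEAH-box proteins, ATP-driven enzymes that unwind or remodel RNA in splicing, ribosome assembly, export, translation and decay.

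The signals of these genes were nearly equal with and without sildenafil. Only DDX59 lay beyond 1.5-fold, and 1 such gene is near the share of all named genes given below. Values are log2 signals, and a difference is the combination array minus the romidepsin array, so that it is positive where the signal was higher with sildenafil. Genes entered if at least 1 array reached 3.91, the median of the whole table. This filter kept 93 of the 100 genes, all of them at or above 3.91 on both arrays. None of the 93 was at least 1.5-fold higher with sildenafil, against 1.02% of all 10081 named genes past the filter, and 1 was at least 1.5-fold lower, against 0.972%. At 1.2-fold, 2 were higher (HNRNPA1 and DDX49) and 4 lower (DDX59, HNRNPA3, DDX19A and SRSF8), against 9.71% and 9.63% of all named genes. The median difference of the 93 genes was -0.00, with 44 higher and 49 lower, and that of all named genes was -0.01. That even split was not stable: median centring of the arrays gave 33 higher and 60 lower, quantile normalization 63 higher and 29 lower, and lowess centring 53 higher and 40 lower. These 3 scalings moved a gene's difference by at most 0.11. Accordingly, 32 of the 93 genes had a sign that differed between scalings, while 32 were higher and 29 lower under all of them.

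The narrow spread of these genes went only in part with their signal. The SD of the differences was 0.15 over the 93 genes and 0.22 over all named genes, and 67.7% of the 93 had a mean signal of 7 or more against 25.2% of all named genes. Among genes with a mean signal from 7 to 9, the SD was 0.14 over 39 members and 0.13 over all 2177 named genes, and of the members 2 were at least 1.2-fold higher (HNRNPA1 and DDX49) and 1 lower (SRSF8), against 1.06% and 4.92% of those named genes. At 9 or above it was 0.08 over 24 members and 0.12 over 364 named genes. From 5 to 7 it was 0.18 over 24 members and 0.20 over 4157 named genes. Below 5 it was 0.25 over 6 members and 0.29 over 3383 named genes. The median absolute difference, which single large values move less, was 0.08 in members and in all named genes from 7 to 9. It was smaller in members in the other ranges: 0.04 against 0.18 below 5, 0.08 against 0.12 from 5 to 7. At 9 or above it was 0.05 against 0.06.

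**Figure D1:**
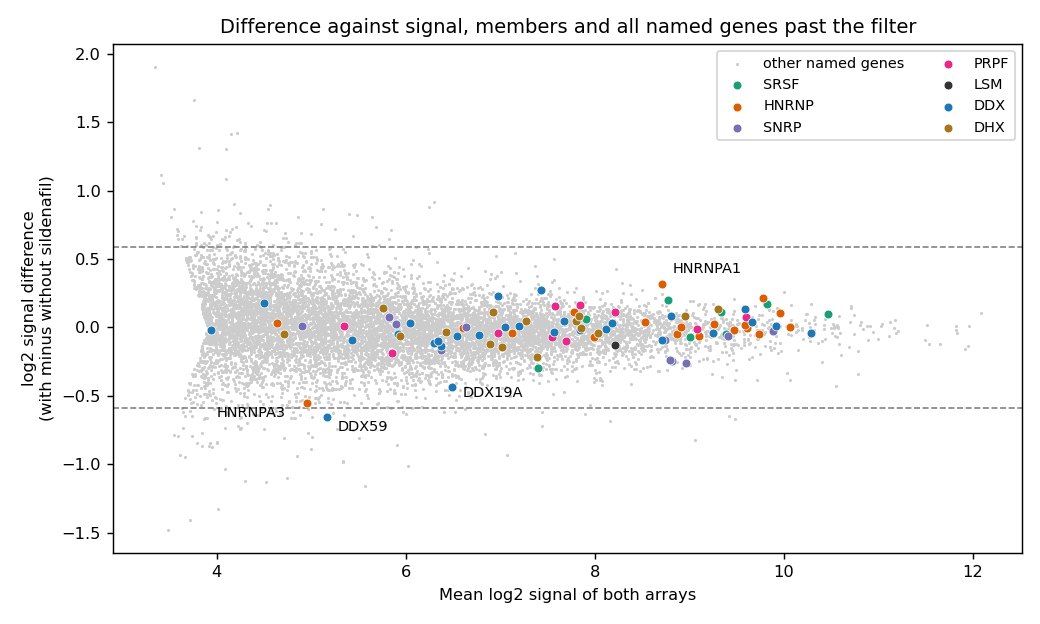
Difference (log2 signal with minus without sildenafil, vertical axis) against the mean log2 signal of both arrays (horizontal axis) for all 10081 named genes past the filter (grey) and the 93 splicing factor and helicase genes (coloured by family); each point is 1 gene and dashed lines mark 1.5-fold. DDX59 is the member below the lower line, HNRNPA3 lies just inside it, and the members lie mostly at mean signals of 7 or more, where the grey cloud is narrow.

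By family, the medians lay between -0.13 and 0.06. The highest was that of the SRSF genes at 0.06 (9 genes, 6 higher and 3 lower), and the LSM entry of -0.13 is LSM12 alone. The SNRP genes had a median of -0.07 (11 genes, 4 higher and 7 lower). The share higher was 66.7% of SRSF and 36.4% of SNRP genes, beside 47.2% of all named genes. Among all named genes it was 57.7% at a mean signal below 5 and 43.4% from 5 to 7. From 7 to 9 it was 39.2%, and at 9 or above 39.8%. The SRSF median stayed above 0 and the SNRP median below 0 under all 3 scalings, with ranges over all alternatives of 0.03 to 0.12 and of -0.09 to -0.01. HNRNP (19 genes, 0.00), PRPF (10 genes, -0.00), DHX (15 genes, -0.00) and DDX (28 genes, -0.02) had medians whose sign changed with the scaling. Whether the families differ from each other cannot be tested with 1 array per treatment.

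**Figure D2:**
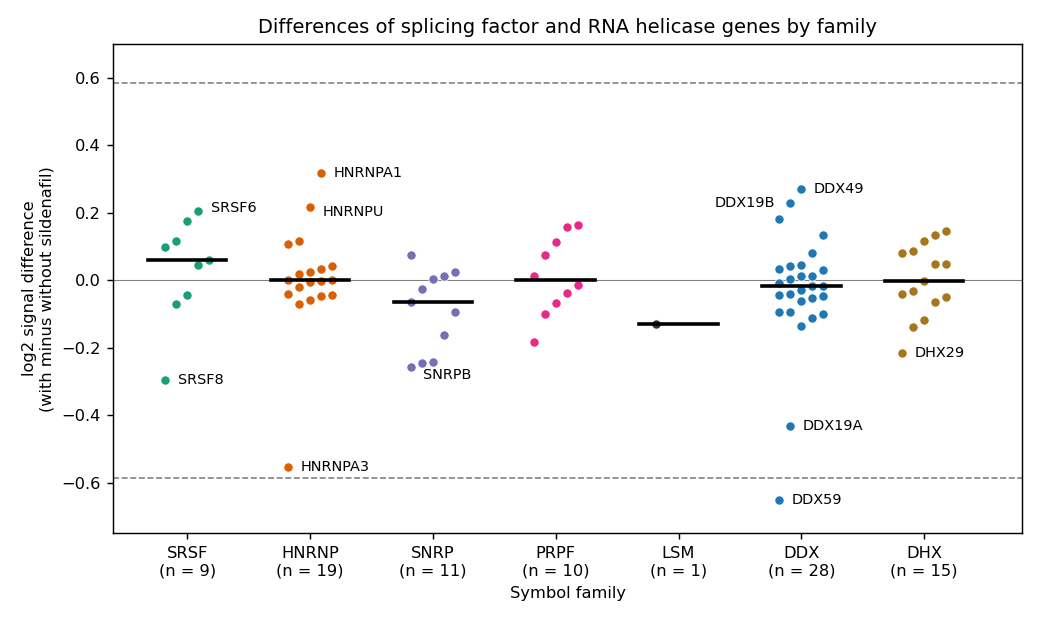
Difference (log2 signal with minus without sildenafil) of each of the 93 genes past the filter, by symbol family; points are single genes, black bars the family medians, and dashed lines mark 1.5-fold. The SRSF median is 0.06 and the SNRP median -0.07, all medians lie well inside the dashed lines, and the medians of HNRNP, PRPF, DDX and DHX change sign with the scaling of the arrays.

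Of the 9 SR protein genes past the filter, 6 were slightly higher with sildenafil, and SRSF7, SRSF11 and SRSF8 were lower. SRSF6 had a signal of 8.67 without and 8.88 with sildenafil, a difference of 0.20. SRSF3, the smallest SR protein, was at 9.74 without and 9.92 with (0.17), and SRSF2, which recognises exonic enhancers and is mutated in some myeloid cancers, at 9.28 and 9.39 (0.12). SRSF1, an SR protein that can act as an oncogene, was at 10.42 and 10.52 (0.10). The differences of SRSF5 and SRSF4 were 0.06 and 0.05. These 6 genes were higher under every scaling. SRSF7 was at 9.41 without and 9.37 with sildenafil (-0.05, a sign that differed between scalings), and SRSF11 differed by -0.07. SRSF8, a retrogene of the SRSF2 type, was at 7.54 without and 7.25 with sildenafil (-0.30), so it lay opposite to SRSF2. Named genes of like signal (7 to 9) had an SD of 0.13, which SRSF6 and SRSF8 exceed and the other SR genes in that range do not. At 9 or above the SD was 0.12, which SRSF3 exceeds and the other SR genes in that range do not. SRSF12 did not pass the filter (2.38 and 2.31).

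Of the kinases that phosphorylate SR proteins, all 8 listed were measured, with a median of 0.07 and 7 higher and 1 lower, beside 47.2% higher over all named genes. Median centring gave 5 higher and 3 lower. None of the 8 was 1.2-fold apart, and 80.7% of all named genes likewise lay within that size. By mean signal this share was 66.8% below 5, 83.5% from 5 to 7 and 94.0% from 7 to 9. CLK2 was the highest at 0.20 (6.26 without and 6.46 with sildenafil), followed by SRPK2 at 0.13, and CLK1 the lowest at -0.15 (7.50 and 7.35).

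The hnRNPs held the largest differences of the splicing families, in opposite directions. HNRNPA3, an RNA-binding protein of the A/B group, had a signal of 5.23 without and 4.67 with sildenafil, 1.47-fold lower (-0.55) and just short of 1.5-fold. Its mean signal of 4.95 lies near an edge of the signal ranges. Named genes below 5 had an SD of 0.29, and those from 5 to 7 of 0.20. HNRNPA1, which represses exons and packages mRNA, was at 8.55 without and 8.87 with sildenafil, higher by 0.32, beside an SD of 0.13 among named genes of like signal. HNRNPU, a chromatin- and RNA-binding scaffold protein, was at 9.67 and 9.89 (0.22, SD 0.12).

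The HNRNPA1 and HNRNPA3 values each have copies elsewhere in the genome to be read beside them. For HNRNPA1P10, a pseudogene left out of the members, the 2 probe sets differed by 0.03 and 0.01 at signals of 9.39 and 11.82 without sildenafil. HNRNPA1P33 was at 5.36 without and 4.82 with sildenafil (-0.54). The protein-coding copy HNRNPA1L2 was at 4.62 and 4.65 (0.03). None of these copies was higher by a like amount. HNRNPA3P1 was at 2.56 without and 2.89 with sildenafil, both below the filter level, and so lay in the other direction from HNRNPA3. How much each probe set reads from its relatives was not tested.

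The other 16 hnRNP genes past the filter lay between -0.07 and 0.11. HNRNPM, a regulator of alternative exons, and HNRNPA0 were each at 0.11. HNRNPK, which binds C-rich RNA, was at 9.58 without and 9.59 with sildenafil (0.02). HNRNPC, which binds uridine tracts, differed by -0.07, HNRNPL, which binds CA repeats, by -0.06, HNRNPA2B1 and HNRNPF by -0.05 each, HNRNPLL, the regulator of CD45 splicing in lymphocytes, by -0.04 and HNRNPDL by -0.02. HNRNPH1 (0.04), HNRNPA1L2 (0.03), HNRNPH3 (0.02), HNRNPAB, HNRNPR, HNRNPUL1 and HNRNPUL2 (each 0.00 or -0.00) completed the group. In 12 of the 19 hnRNP genes past the filter the sign differed between scalings. HNRNPCL1 (2.43 and 2.03) and HNRNPCL2 (3.47 and 3.62) did not pass the filter.

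Within the Sm core, SNRPB and SNRPD1 lay lower with sildenafil and the other subunits lay near 0. SNRPB, which encodes the SmB/B′ proteins, had a signal of 9.10 without and 8.84 with sildenafil (-0.26). SNRPD1 (SmD1) was at 8.94 and 8.70 (-0.25). SNRPD2 differed by -0.10, SNRPD3 by -0.03, SNRPG by 0.01, SNRPF by 0.03 and SNRPE by 0.07. SNRPE had a second probe set, which differed by -0.01, and the mean of both gave 0.03. The values of these subunits were thus unequal, but their signals were too. SNRPD2 (8.80 without sildenafil) and SNRPD3 (9.90) were bright like SNRPB and SNRPD1. SNRPG (4.90), SNRPF (5.89) and SNRPE (5.79) were dimmer. Named genes of like signal had an SD of 0.29 for SNRPG and 0.20 for SNRPF and SNRPE. Whether subunits of the ring differ from each other was not tested. SNRPN was not named.

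The U1- and U2-specific proteins included a member of similar size. SNRPB2, a protein of the U2 snRNP, was at 8.92 without and 8.68 with sildenafil (-0.24), while its binding partner SNRPA1 was at 6.63 and 6.64 (0.00). Of the U1 proteins, SNRPC was at 6.46 and 6.30 (-0.16), and SNRPA differed by -0.07. SNRPB, SNRPD1 and SNRPB2 were lower under all 3 scalings, by amounts that stand against an SD of 0.13 among all named genes with a mean signal from 7 to 9.

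As deposited, 5 PRPF genes were higher and 5 lower, and the sign of 3 of the 10 differed between scalings. In the U4/U6.U5 tri-snRNP, PRPF4 was at 7.76 without and 7.92 with sildenafil (0.16), PRPF6, which bridges U5 and U4/U6, at 8.16 and 8.27 (0.11) and PRPF8, the core scaffold of the spliceosome, at 9.56 and 9.64 (0.07). PRPF3 and PRPF31, both mutated in inherited retinitis pigmentosa, differed by -0.04 and -0.07. Outside the tri-snRNP, PRPF19, a ubiquitin ligase that activates the spliceosome, was at 0.16. PRPF18, which acts in the second catalytic step, was at 5.95 without and 5.76 with sildenafil (-0.18). PRPF39 differed by -0.10, PRPF38A by -0.01 and PRPF40B by 0.01. LSM12, an Sm-like protein outside the U6 ring, was at 8.27 and 8.15 (-0.13).

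**Figure D3:**
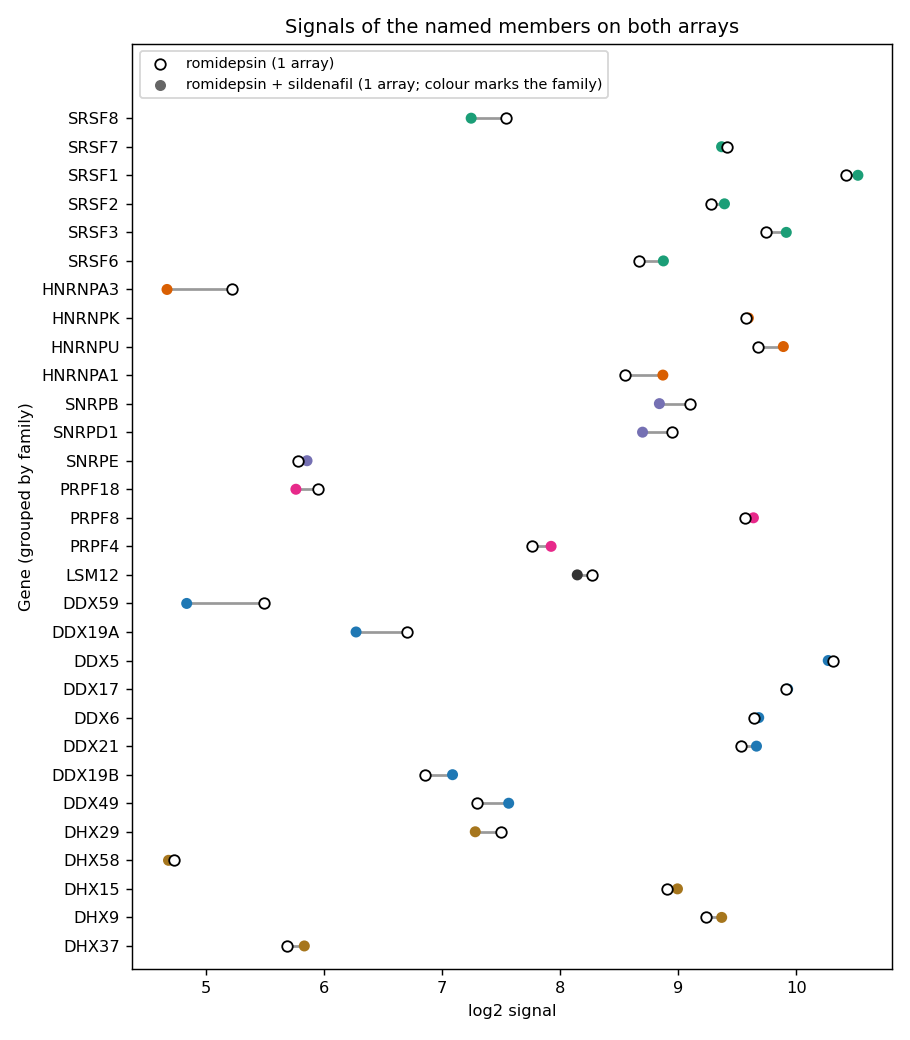
Log2 signal of the 28 members given in full by rule, and of DDX19A and DDX19B, on the romidepsin array (open circles) and the combination array (filled circles, coloured by family), with 1 array per treatment and a line joining the pair. The longest lines belong to DDX59, HNRNPA3 and DDX19A, all lower with sildenafil; signals of different genes come from different probe sets and are not comparable in level.

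DDX59 was the only one of the 43 helicase genes past the filter that lay beyond 1.5-fold. Its signal was 5.49 without and 4.84 with sildenafil, 1.57-fold lower (-0.65), and between -0.68 and -0.64 under the 3 scalings. Variants of DDX59 cause an orofaciodigital syndrome, and its RNA targets are less well known than those of other DEAD-box proteins. Named genes with a mean signal from 5 to 7 had an SD of 0.20, and 0.625% of these 4157 genes lay at least 1.5-fold lower. The mean signal of DDX59, 5.17, lies near the edge of that range. Below 5 the SD was 0.29, and 64 of 3383 named genes lay at least 1.5-fold lower. DDX59 rests on 1 probe set.

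DDX19A and DDX19B, neighbouring genes on chromosome 16 for closely related mRNA export helicases of the nuclear pore, differed in opposite directions. DDX19A was at 6.71 without and 6.27 with sildenafil (-0.43, 1.35-fold lower). DDX19B was at 6.86 and 7.09 (0.23, 1.17-fold higher). DDX19A-DT, a non-coding transcript that was left out of the members and starts 156 bases from DDX19A on the other strand, was at 5.34 without and 4.83 with sildenafil (-0.51), lower like DDX19A. Named genes of like signal had an SD of 0.20. Because these helicases are close relatives, their probe sets may read each other's transcripts, which was not tested. Other members that neighbour each other were DDX50 (-0.02) and DDX21 (0.13) on chromosome 10, and DDX60 (-0.09) and DDX60L on chromosome 4. DDX60L was below the filter level.

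Helicases of the spliceosome stayed within -0.14 and 0.12. Of 9 genes, 6 were higher and 3 lower, with a median of 0.05. DHX38 and DHX16, which act around the first catalytic step, differed by 0.12 and 0.05, DHX15, which takes the spliceosome apart, by 0.09 (8.91 without and 8.99 with sildenafil), DHX8, which releases the spliced mRNA, by 0.08, DDX42 by 0.08 and DDX46, which acts on the U2 snRNP, by 0.03. DDX41, mutated in familial myeloid neoplasms, was at -0.01, DDX23, a tri-snRNP helicase, at -0.11 and DHX35 at -0.14. DHX16 had 8 probe sets, of which 5 held identical values on both arrays, and the 8 differed by 0.03 to 0.08.

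Helicases of ribosome biogenesis ranged from -0.14 to 0.27 with a median of 0.01 (12 genes, 7 higher and 5 lower). DDX49 was the highest of all helicase genes, at 7.30 without and 7.57 with sildenafil (0.27). DDX51 was at 4.41 and 4.59 (0.18), DHX37 at 5.69 and 5.84 (0.14) and DDX21, a nucleolar helicase that senses RNA polymerase I and II output, at 9.53 and 9.66 (0.13). DDX24 (0.04), DDX47 (0.01), DDX54 (0.00), DDX56 (-0.03), DDX55 (-0.05), DDX10 (-0.06), DDX52 (-0.09) and DDX31 (-0.14) lay closer to or below 0.

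Of the helicases of export, translation and decay, DHX29, which helps ribosomes scan structured leaders, was at 7.50 without and 7.28 with sildenafil (-0.21). DDX6, which represses translation and promotes decapping in P-bodies, was at 9.64 and 9.68 (0.04). DHX34, a factor of nonsense-mediated decay, differed by -0.07 and DHX36, which unwinds G-quadruplexes, by -0.04. DDX25 did not pass the filter (3.25 and 2.94). DDX3X, DDX39A and DDX39B were not named and are not analysed here.

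The 2 members assigned to innate RNA sensing and the 2 assigned to mitochondria that passed the filter lay between -0.12 and -0.05. All lay within the SD of named genes of like signal, 0.29 for DHX58 and 0.20 for DDX60, DHX30 and DDX28. The RNA sensors outside these families, IFIH1 (-0.24) and RIGI (0.10), are given below. DHX58, which encodes LGP2, a regulator of RIG-I-like receptors, was at 4.74 without and 4.69 with sildenafil (-0.05), and the interferon-induced DDX60 at 5.47 and 5.38 (-0.09). DHX30 and DDX28, both needed for mitochondrial ribosomes, differed by -0.12 and -0.05. Among multifunctional helicases, DHX9, which unwinds double-stranded RNA and R-loops, was at 9.23 and 9.37 (0.13). DDX5 and its paralog DDX17, coregulators of transcription and splicing, were at 10.31 without and 10.27 with (-0.04) and at 9.92 and 9.93 (0.01). DDX1 (-0.04), DDX20 (0.03), DHX33 (0.05), DHX40 (-0.00) and DHX57 (-0.03) were likewise near 0. The germ-cell helicase DDX4 was at 6.39 without and 6.29 with sildenafil (-0.10), and the cancer-testis genes DDX43 and DDX53 at -0.02 and -0.01, of which DDX53 did not pass the filter (2.44 and 2.43). DHX32 did not pass it either (2.83 and 2.95).

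**Figure D4:**
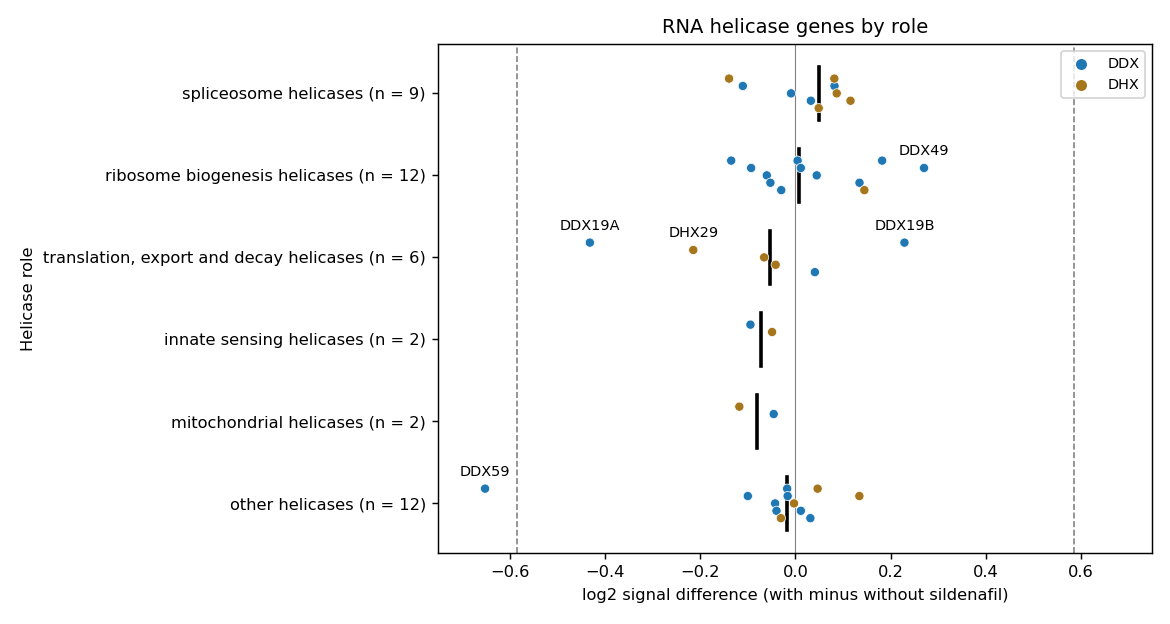
Difference (log2 signal with minus without sildenafil, horizontal axis) of the 43 DDX and DHX genes past the filter, by role; points are single genes coloured by family, black bars the medians, and dashed lines mark 1.5-fold. Only DDX59 lies beyond a dashed line, and DDX19A and DDX19B lie on opposite sides of 0 (-0.43 and 0.23).

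Splicing genes outside these families had an SD of the differences of 0.13. It was 0.22 over all named genes and 0.13 over those with a mean signal from 7 to 9. Of 60 listed genes 48 were measured and passed the filter, with a median of -0.01 and with 23 higher and 25 lower (15 and 33 after median centring, 31 and 17 after quantile normalization, 29 and 19 after lowess centring). Of these, RBM22 was at least 1.2-fold higher and SLU7, MAGOHB, SNRNP48 and SNRNP35 at least 1.2-fold lower, 1 and 4 of 48. The shares were 9.71% and 9.63% of all named genes, and 1.06% and 4.92% of those from 7 to 9, where RBM22 lay. From 5 to 7, where the 4 lower genes lay, 260 of 4157 named genes were higher and 424 lower by that size. SLU7, which selects the 3′ splice site, was the lowest at 7.15 without and 6.83 with sildenafil (-0.32), followed by MAGOHB, a subunit of the exon junction complex (-0.29). RBM22, which contacts the catalytic RNA core, was the highest at 7.40 and 7.66 (0.26), followed by MBNL2 (0.22). Other RNA helicases had a median of -0.05 over 6 measured genes of 15 listed symbols, from IFIH1, the sensor MDA5, at -0.24 (6.88 and 6.64) to RIGI, the sensor RIG-I, at 0.10.

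Promoters are shown for members toward the outer end of their family or role and for the neighbours DDX19A and DDX19B, a choice made after their values were seen. HNRNPA1, DDX49 and SNRPD1, which lay as far apart, are not shown because no promoter window was matched to them. RefSeq windows of 300 bases (250 before and 50 after the annotated start) were matched to 91 of the 100 members. Searched on both strands were the CCAAT box (CCAAT), the GC box (GGGCGG), an ETS-type site (CCGGAAG) and the TATA box (TATAAA). Below, 5′ to 3′ on the gene's strand and in build GRCh38.p14, capitals mark these matches. DDX59 (chr1:200669687-200669986, minus strand) held 3 GC boxes and 1 ETS-type match, HNRNPA3 (chr2:177212544-177212843, plus strand) 1 CCAAT box and 4 GC boxes, and HNRNPU (chr1:244864494-244864793, minus strand) 3 GC boxes and 2 CCAAT matches on opposite strands that overlap. SRSF6 (chr20:43457646-43457945, plus strand), the highest SR gene, held 3 GC boxes, and SRSF8 (chr11:95066627-95066926, plus strand), the lowest, held 1 CCAAT box.
DDX59: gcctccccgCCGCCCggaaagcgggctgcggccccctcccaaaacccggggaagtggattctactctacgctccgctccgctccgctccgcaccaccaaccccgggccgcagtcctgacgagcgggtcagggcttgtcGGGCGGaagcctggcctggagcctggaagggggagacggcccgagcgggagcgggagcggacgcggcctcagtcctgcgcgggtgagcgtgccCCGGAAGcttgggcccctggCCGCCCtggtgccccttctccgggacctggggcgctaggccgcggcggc
HNRNPA3: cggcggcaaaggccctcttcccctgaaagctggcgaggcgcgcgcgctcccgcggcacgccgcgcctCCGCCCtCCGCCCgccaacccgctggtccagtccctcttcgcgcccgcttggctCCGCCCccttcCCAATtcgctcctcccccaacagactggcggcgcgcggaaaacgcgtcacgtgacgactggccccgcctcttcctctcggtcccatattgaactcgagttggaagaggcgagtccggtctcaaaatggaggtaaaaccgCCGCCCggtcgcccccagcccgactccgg
HNRNPU: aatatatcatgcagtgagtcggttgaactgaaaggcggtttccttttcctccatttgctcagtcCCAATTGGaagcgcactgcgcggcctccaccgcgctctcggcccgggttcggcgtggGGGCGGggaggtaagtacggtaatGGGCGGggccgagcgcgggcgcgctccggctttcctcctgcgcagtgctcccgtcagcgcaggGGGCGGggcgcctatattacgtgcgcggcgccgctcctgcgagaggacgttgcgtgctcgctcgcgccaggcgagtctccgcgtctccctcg
SRSF6: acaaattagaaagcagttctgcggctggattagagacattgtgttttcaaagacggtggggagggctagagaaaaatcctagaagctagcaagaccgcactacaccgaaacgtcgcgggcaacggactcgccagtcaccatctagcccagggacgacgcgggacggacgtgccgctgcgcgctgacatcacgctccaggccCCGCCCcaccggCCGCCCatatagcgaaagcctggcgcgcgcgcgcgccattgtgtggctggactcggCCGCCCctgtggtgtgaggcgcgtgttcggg
SRSF8: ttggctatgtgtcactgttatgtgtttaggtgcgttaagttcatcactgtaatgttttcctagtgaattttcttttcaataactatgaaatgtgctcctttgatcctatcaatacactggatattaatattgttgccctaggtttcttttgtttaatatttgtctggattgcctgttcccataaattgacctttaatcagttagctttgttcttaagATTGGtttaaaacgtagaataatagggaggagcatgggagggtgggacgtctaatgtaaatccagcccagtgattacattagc

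The windows of the opposed neighbours DDX19A (chr16:70346653-70346952, plus strand) and DDX19B (chr16:70294527-70294826, plus strand) held different matches, 1 ETS-type site in the first and 2 CCAAT boxes in the second. The DDX19A window shares 255 bases with that of DDX19A-DT, the transcript that was lower together with it. Both SNRP genes shown held ETS-type matches, 1 in SNRPB (chr20:2470740-2471039, minus strand) and 2 in SNRPB2 (chr20:16729776-16730075, plus strand).
DDX19A: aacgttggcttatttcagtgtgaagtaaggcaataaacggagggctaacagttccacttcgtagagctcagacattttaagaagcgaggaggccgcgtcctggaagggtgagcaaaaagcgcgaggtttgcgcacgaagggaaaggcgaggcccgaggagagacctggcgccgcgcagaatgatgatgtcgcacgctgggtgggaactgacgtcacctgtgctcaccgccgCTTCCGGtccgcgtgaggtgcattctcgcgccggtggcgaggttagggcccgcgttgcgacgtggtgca
DDX19B: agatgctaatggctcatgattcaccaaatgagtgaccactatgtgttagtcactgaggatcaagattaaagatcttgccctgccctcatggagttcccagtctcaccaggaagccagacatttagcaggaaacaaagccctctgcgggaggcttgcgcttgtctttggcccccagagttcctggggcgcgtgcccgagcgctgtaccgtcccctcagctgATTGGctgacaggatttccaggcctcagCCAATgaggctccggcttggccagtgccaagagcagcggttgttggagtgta
SNRPB: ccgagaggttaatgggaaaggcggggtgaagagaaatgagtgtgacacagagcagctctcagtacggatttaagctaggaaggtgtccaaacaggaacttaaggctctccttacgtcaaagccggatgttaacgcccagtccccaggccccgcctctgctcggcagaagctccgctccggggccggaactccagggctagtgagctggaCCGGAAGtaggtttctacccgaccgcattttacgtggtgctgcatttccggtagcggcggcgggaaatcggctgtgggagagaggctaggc
SNRPB2: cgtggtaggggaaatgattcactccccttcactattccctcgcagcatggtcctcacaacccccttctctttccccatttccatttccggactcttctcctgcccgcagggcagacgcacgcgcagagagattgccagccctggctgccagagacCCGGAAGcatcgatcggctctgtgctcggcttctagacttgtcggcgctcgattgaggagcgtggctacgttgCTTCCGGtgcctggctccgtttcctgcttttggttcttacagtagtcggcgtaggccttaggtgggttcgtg

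Across the families these letters were unevenly spread. The CCAAT box was held by 52.7% of the 91 member promoters, against 36.0% of 15843 protein-coding promoters. By family it was held by 75.0% of HNRNP (15 of 20), 62.5% of PRPF, 57.1% of DHX, 51.7% of DDX, 30.0% of SNRP (3 of 10) and 22.2% of SRSF promoters (2 of 9). An ETS-type match was held by 30.8% of the member promoters, against 14.0% of all. The shares were 60.0% of SNRP (6 of 10), 57.1% of DHX (8 of 14), 31.0% of DDX, 25.0% of PRPF, 22.2% of SRSF and 5.0% of HNRNP promoters (1 of 20). The GC box was held by 54.9% of the member promoters and 57.4% of all, and the TATA box by 6.59% and 9.91%. The background of all protein-coding promoters was not limited to genes past the filter. Whether the higher CCAAT and ETS-type shares belong to these families or to expressed genes in general was not tested. Medians with and without the commoner motifs were close. Members past the filter had a median difference of -0.02 with and 0.01 without a CCAAT box (44 and 40 genes), of -0.01 and -0.00 with and without an ETS-type match (28 and 56 genes), and of -0.00 with and without a GC box (48 and 36 genes). A match is a run of letters and not a measured binding site.

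The labelled cell type was checked against its markers. Of 16 NK and T cell markers 11 were named and 10 passed the filter. Their signals without sildenafil ran from 3.82 (GNLY, at 3.92 with sildenafil and so past the filter on that array alone) to 8.83 (PRF1, 8.81 with), with NKG7 at 8.50 and 8.23, CD2 at 8.10 and 8.10, CD247 at 7.11 and 7.17 and NCAM1 at 6.63 and 6.54. TBX21, which encodes T-bet, had the largest difference of the list (4.62 and 5.09, 0.47), and EOMES did not pass (3.21 and 2.90). Of other cell types, LYZ, CD14 and EPCAM were below the filter level on both arrays. KRT18 (7.04 and 7.38), CD68 (6.72 and 6.61), KRT8 (5.43 and 5.13), PAX5 (5.23 and 5.05) and CSF1R (4.01 and 4.28) passed it, and their part in the results was not tested. In bulk RNA, fewer cells of a type and less RNA per cell cannot be told apart.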

How the data were processed

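Per the labels' protocols, total RNA was amplified with a whole-transcript kit and biotin-labelled for an expression array. The deposited table holds log2 signals for 53617 probe sets on 2 arrays. The base is not stated and was read as 2 from the range of the values (0.79 to 13.05). How the authors summarised, background-corrected and normalized the arrays is not stated in the labels. The column medians were 3.89 and 3.92, so a change shared by most transcripts would not show. Samples were grouped by title, and the short form of the added drug was taken to mean sildenafil, the only other drug in the treatment protocol.

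Gene names came from GEO's platform annotation (16098 probe sets), whose symbols all matched the RefSeq gene table (GRCh38.p14); biotypes there removed pseudogenes and non-coding RNAs. The probe set with the highest mean stood for a gene. No test was possible with 1 array per group, so counts by size (1.5-fold, and 1.2-fold, chosen after seeing the data) stand beside the same share of all named genes. Precision is limited by the number of arrays. Both arrays were given for members beyond 1.5-fold, for the highest and lowest member of each family and for 22 listed genes (17 named); further members were given in full after their values were seen, as were the ranges of signal, promoter motifs and promoters shown. Members, lists and rules were chosen with earlier results of these data known. A description of member proteins was planned and not run, because no protein sequences were used here. The code for counts and medians was run on simulated data with noise independent of signal. The planted shifts were larger than the family medians given here, so this checks the code and not differences of the sizes reported. Alternatives changed the filter, the scaling, the probe-set rule and the threshold. Tools were Python 3.11.15, pandas 2.3.3, numpy 2.4.6, statsmodels 0.14.6 and matplotlib 3.10.9.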

Additional observations from a re-analysis of the deposited data

How the results depend on the processing

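No paired analysis was possible because each treatment holds 1 array. The filters leave a gene's own difference as it is, and the probe-set rules touch only SNRPE and DHX16, so for single genes only the 3 scalings are a test. They moved the medians (all members, 7 families) and the differences of 28 genes by at most 0.07, and left the 1.5-fold counts of members as they were. Counts followed the threshold. The count of lower members was 1 at 1.5-fold, 0 at 2-fold and 3 at a planned threshold of 0.322 on the log2 scale. It was 4 at 1.2-fold, which was chosen after seeing the data. The count of higher members was 2 at 1.2-fold and 0 under the other alternatives. HNRNPA1 fell just short of the threshold of 0.322 as deposited (0.318). It lay beyond that level after lowess centring (0.349) and quantile normalization (0.355). A move under 0.1 can still turn a sign near 0: the median of all members ranged from -0.03 (median centring) to 0.04 (quantile normalization), and the DDX, DHX, HNRNP and PRPF medians crossed 0. Over the whole named set, the 1.5-fold counts were 103 higher and 98 lower as deposited, 78 and 116 after median centring, 77 and 112 after lowess centring, 93 and 93 after quantile normalization, 223 and 156 with no filter, and 28 and 45 (0.404% and 0.649%) with the filter at a log2 signal of 5. The table holds no detection calls or background, so a limit of signal over background is unknown.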
